A study of Mus musculus with 2 samples.

Results

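The genes of G2 and mitosis described here are 38 genes that cells use to enter mitosis, build the spindle, separate chromosomes and divide, from cyclins and Cdk1 to the motors of cytokinesis. A gene counted when at least 1 probe set of the array was annotated to it alone, which held for 37 of the 38, among 12393 genes in all. Ccnb1, which encodes cyclin B1, had no such probe set and was not analysed here. The study hybridised 1 array of follicular B cells, which recirculate and make up most B cells of the spleen, and 1 array of marginal zone B cells, which sit beside the marginal sinus. Both came from wild-type female C57BL/6 mice, whose age the labels do not state. B cells of 3 spleens were enriched on beads against B220 and then sorted on CD21 and CD23, as high CD23 with intermediate CD21 for the follicular array and as intermediate CD23 with high CD21 for the marginal zone array. Sorted cells were pooled before lysis, so each array averages over cells and mice, and the labels do not say whether both sorts used the same mice.

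Mature B cells of the spleen are mostly resting, in a state outside the division cycle from which antigen or other stimuli can recall them. Genes of G2 and mitosis are known to be shut in resting cells and to peak late in the cycle, when complexes of the MuvB proteins with B-Myb and FoxM1 switch them on, so their transcripts are widely used as marks of dividing cells. Some genes of the group have further uses: condensin subunits, the centromeric histone CENP-A and Bub3 also serve cells that are not in mitosis. The question asked of these arrays was whether either sort carried such transcripts, and whether the sorts differed in them. In pooled cells, fewer dividing cells and less transcript per cell cannot be told apart.

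The promoters of these genes carry letters that the choice of genes did not use. MuvB complexes bind the cell cycle genes homology region, searched here as TTTGAA or TTCGAA, often near a CCAAT box, searched as CCAAT, while E2F sites were searched as TTTCGCGC, TTTGGCGC or TTTCCCGC. All were searched on both strands in the 250 bases before each start in a RefSeq promoter table of GRCm38.p6, which held 33 starts of 31 of the 38 genes. A CCAAT match stood in 27 of the 33 windows (81.8%), against 33.8% of all 32851 windows of the table. The homology region letters stood in 14 (42.4%), against 17.1% of all windows, and both stood together in 13 (39.4%), against 6.02%. E2F letters of these forms stood in 2 windows, against 1.53% of all. Such matches describe the sequence and do not show binding. The 4 promoters below, on the strand of the gene and clipped to bases outside the gene's own RefSeq span, were chosen because Mki67 and Racgap1 differed most between the arrays among members higher in marginal zone cells, while Cdk1 and Plk1, the central kinases of mitosis, were near background on both. Capitals mark the matches.
Mki67: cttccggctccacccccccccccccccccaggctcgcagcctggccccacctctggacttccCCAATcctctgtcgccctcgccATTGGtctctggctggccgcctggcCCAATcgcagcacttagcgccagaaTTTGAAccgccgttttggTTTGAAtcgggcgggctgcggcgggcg
Racgap1: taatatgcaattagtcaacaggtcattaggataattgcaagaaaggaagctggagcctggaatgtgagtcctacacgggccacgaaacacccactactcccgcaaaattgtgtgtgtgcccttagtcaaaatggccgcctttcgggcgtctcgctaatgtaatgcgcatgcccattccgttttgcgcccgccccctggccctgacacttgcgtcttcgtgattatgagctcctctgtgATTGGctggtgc
Cdk1: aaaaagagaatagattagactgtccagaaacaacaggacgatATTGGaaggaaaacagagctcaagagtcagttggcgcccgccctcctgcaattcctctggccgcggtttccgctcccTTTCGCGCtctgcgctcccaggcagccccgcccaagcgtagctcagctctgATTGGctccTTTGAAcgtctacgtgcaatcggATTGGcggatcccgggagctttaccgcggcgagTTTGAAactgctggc
Plk1: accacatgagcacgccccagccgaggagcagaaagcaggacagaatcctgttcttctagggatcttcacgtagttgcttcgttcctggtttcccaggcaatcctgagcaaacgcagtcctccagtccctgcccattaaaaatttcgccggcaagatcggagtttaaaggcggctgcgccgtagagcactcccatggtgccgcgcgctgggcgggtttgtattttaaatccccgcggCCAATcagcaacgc
The Mki67 stretch is chr7:135716451-135716629 on the minus strand and holds 3 CCAAT matches and 2 homology region matches. The Racgap1 stretch is chr15:99651657-99651906 on the minus strand, with 1 CCAAT match. The Cdk1 stretch is chr10:69352913-69353162 on the minus strand, with 3 CCAAT matches, 2 homology region matches and 1 E2F match. The Plk1 stretch is chr7:122159185-122159434 on the plus strand, with 1 CCAAT match. None of the 4 stretches overlapped another RefSeq gene of the same table.

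Values are MAS5 signals on a linear scale, brought to a common 2% trimmed mean, and each gene is given by its brightest probe set. Signals under a floor of 12.7, the median of all values, were treated as near background, since such signals have no reliable order. By that rule 13 of the 37 genes were near background on both arrays, 13 were above the floor on both, 5 on the follicular array only and 6 on the marginal zone array only. In all, 24 (64.9%) exceeded the floor on at least 1 array, close to the 62.1% of all 12393 genes. Only 9 members (24.3%) reached the 75th percentile of all values, a signal of 45.7, on either array, against 31.5% of all genes.

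Genes of liver, pancreas, muscle, eye, skin, brain, testis and other tissues gave a second view of the background. Of 35 such genes, 9 exceeded the floor on the follicular and 9 on the marginal zone array, so a signal just above the floor does not show expression. Their medians were 8.49 and 8.71, beside 12.3 and 14.5 for the members. The brightest of them was Mbp, the myelin basic protein gene, at 43.7 and 36.3; a different Mbp probe set was at 52.8 on the follicular array, above the signal of Cdc20 there. Above those 2 signals of Mbp were 8 members on the follicular array and 10 on the marginal zone array. The 7 members above it on both were Bub3, Smc4, Cenpa, Mad2l1, Incenp, Plk4 and Cdc20. Cdc25b passed it only in follicular cells, and Mki67, Racgap1 and Top2a only in marginal zone cells. The other 26 members lay at or under it on both arrays. These counts rest on Mbp alone, and whether these cells expressed Mbp was not tested. The next brightest of the other-tissue genes was Apoa2 at 30.2 on the follicular array and Lor at 28.0 on the marginal zone array. Above those signals were 9 and 12 members. Bub3, Incenp, Plk4 and Cdc20 passed Mbp by probe sets with the suffix _s_at or _x_at, which may match other transcripts. Without such sets Bub3 was at 45.1 and 27.4, Cdc20 at 21.6 and 29.8, Plk4 at 18.9 and 27.7, and Incenp under the floor. By these sets none of them was above the Mbp signals of 43.7 and 36.3 on both arrays. B cell identity genes, in contrast, were above the floor on both arrays in 8 of 8 cases, with Ms4a1, which encodes CD20, at 1754 and 1878, Cd79b at 1039.9 and 545.9, and Cd79a at 196.7 and 115.6.

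**Figure D1:**
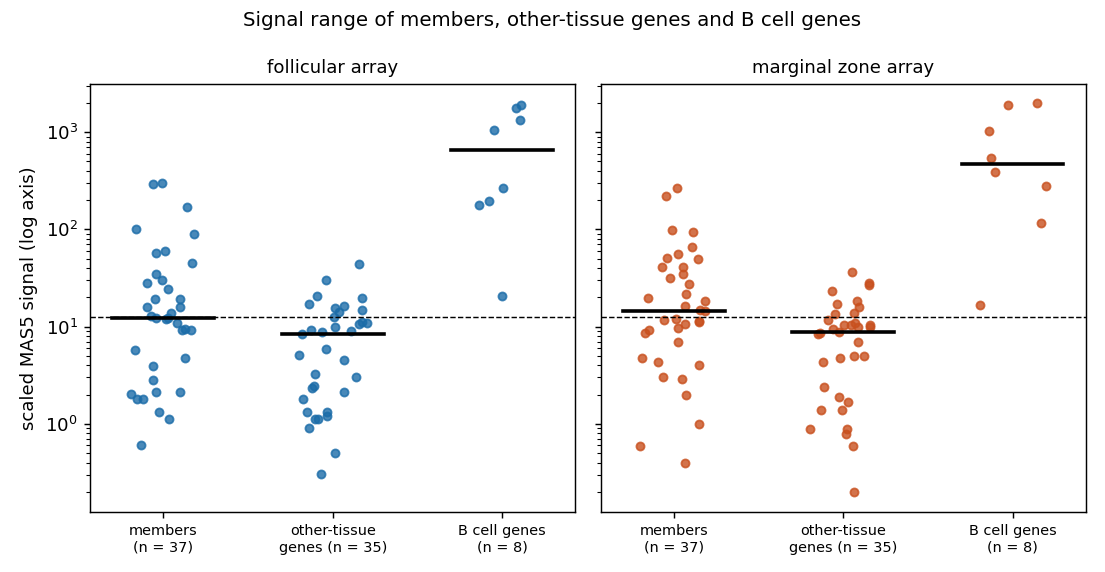
Scaled MAS5 signal (log axis) of 37 G2 and mitosis genes, 35 genes of other tissues and 8 B cell genes on the follicular array (left) and the marginal zone array (right). Each point is the brightest probe set of 1 gene, black bars are medians and the dashed line is the floor of 12.7; most members share the range of the other-tissue genes, with medians of 12.3 and 14.5 against 8.49 and 8.71.

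Between the sorts, 3 of the 37 members passed 2-fold toward marginal zone cells and 1 passed it toward follicular cells. Of all 7695 genes above the floor, 4.39% passed 2-fold toward marginal zone cells and 4.86% toward follicular cells; over all 12393 genes on the array the shares were 2.73% and 3.02%. Of the other 20 members above the floor, 12 were above it on both arrays with a ratio under 2-fold, and 8 had 1 array under the floor and only a lower bound under 2-fold. With the floor raised to the 75th percentile both member counts were 0, and with the floor lowered to the 25th percentile they were 7 and 4. Of the 24 above the floor, 12 had the higher signal in each sort, and their median difference in log2 signal, taken as marginal zone minus follicular, was 0.03, beside -0.03 for all genes above the floor. The member median took the other sign under 3 alternatives, and no direction is read from it. Summed over the 37 genes, signals came to 1439 in follicular and 1297 in marginal zone cells. These sums include signals under the floor, and their largest terms were Bub3 and Smc4, so no direction is read from them. With 1 array per sort there is no replicate error and no test between the sorts, and folds over the floor are lower bounds, written "at least". Precision is limited by there being only 1 array of each sort. The only repeat is between different sets for the same gene, whose log2 ratios had an SD of 0.44 over 2622 genes.

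**Figure D2:**
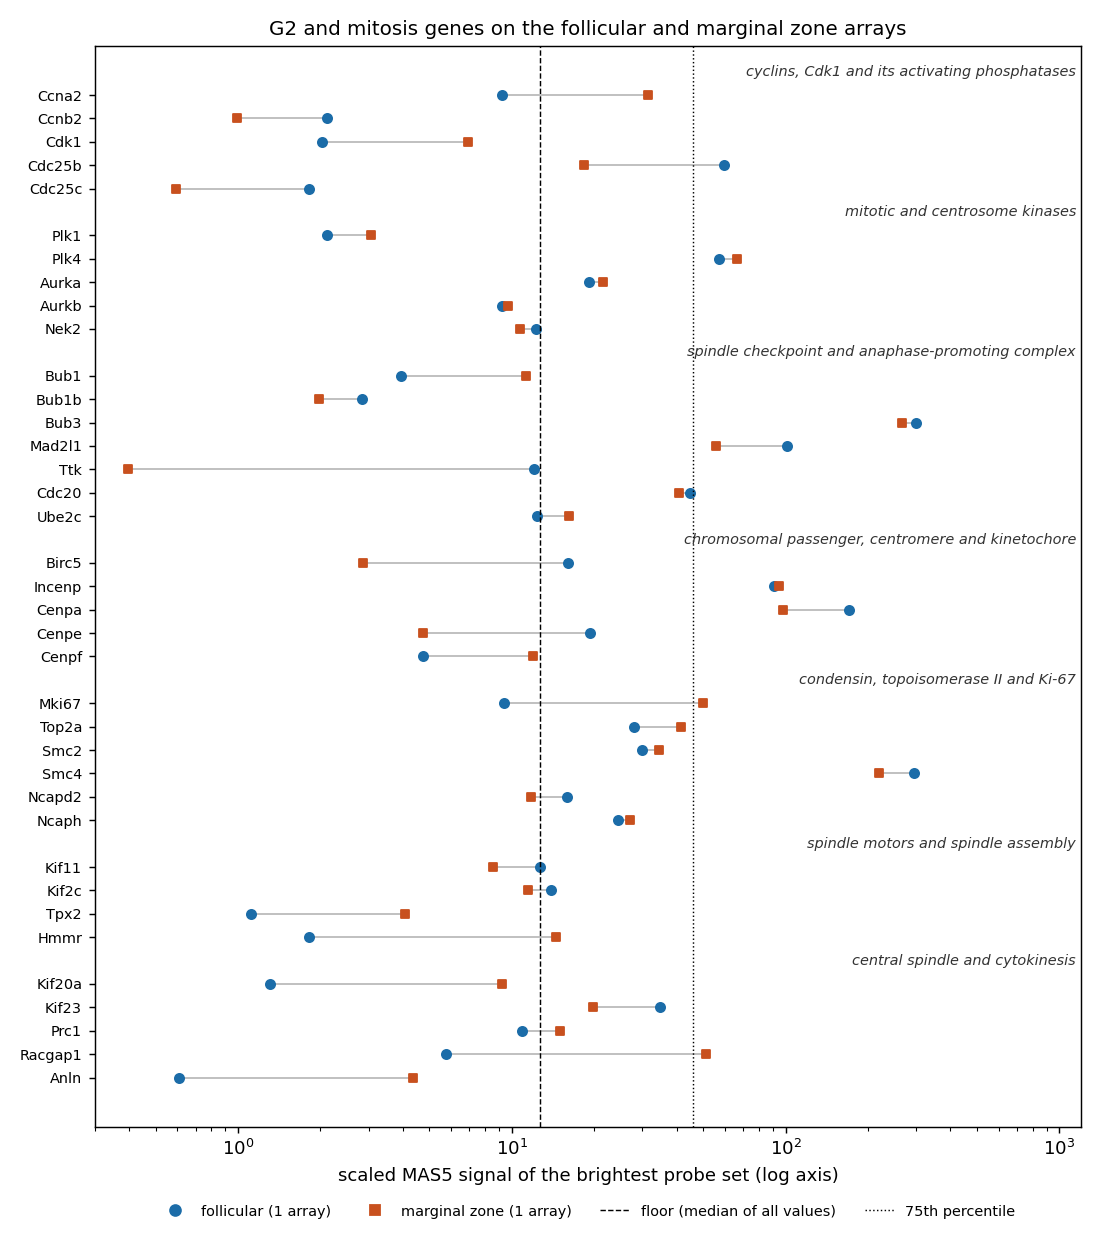
Scaled MAS5 signal (log axis) of the brightest probe set of each of 37 G2 and mitosis genes, by role, on the follicular array (blue circles) and the marginal zone array (orange squares), with lines joining the 2 arrays. The dashed line is the floor of 12.7 and the dotted line the 75th percentile of 45.7; Mki67, Racgap1 and Ccna2 cross the floor from follicular to marginal zone cells, Cdc25b is above it on both, and 13 genes lie left of it on both.

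The engine of mitotic entry was mostly near background. Cdk1, the kinase that drives entry into mitosis, was at 2.02 in follicular and 6.93 in marginal zone cells. Its partner cyclin Ccnb2 was at 2.12 and 0.99, and Cdc25c, a phosphatase that activates Cdk1, at 1.82 and 0.59. All of these lay under the floor in both sorts. Ccna2, which encodes cyclin A2 of S phase and G2, was at 9.20 in follicular cells, under the floor, and at 31.6 in marginal zone cells, a difference of at least 2.49-fold. Its other probe set was at 1.62 and 14.5, higher by at least 1.15-fold, so both pointed to marginal zone cells while the second barely cleared the floor. Cdc25b, a related phosphatase that acts at the start of mitosis, went the other way and was above the floor on both arrays. It was at 59.8 in follicular and 18.3 in marginal zone cells, 3.27-fold higher in follicular cells, on its single probe set.

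Among the kinases of mitosis and the centrosome, no member passed 2-fold. Plk1, which acts from centrosome maturation to cytokinesis, was at 2.12 and 3.07, and Aurkb, the kinase of the chromosomal passenger complex, at 9.20 and 9.70. Nek2, a centrosome kinase, was at 12.2 and 10.7, so these 3 were under the floor in both sorts. Aurka, the spindle pole kinase, was at 19.1 and 21.6, within the range of the other-tissue genes. Plk4, which starts centriole duplication, was at 57.3 and 66.4. Its 3 probe sets ran from -0.22 to 0.55 on the log2 scale, so they did not share a direction.

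The spindle checkpoint split into bright and near-background genes. Bub3, a checkpoint protein that binds kinetochores, had signals of 299.5 in follicular and 266.6 in marginal zone cells. Its 3 probe sets above the floor lay between -0.72 and -0.10 on the log2 scale, all with the higher signal in follicular cells. Mad2l1, which encodes the checkpoint effector Mad2, was at 100.8 and 55.6, 1.81-fold in favour of follicular cells. Cdc20, the activator of the anaphase-promoting complex that Mad2 restrains, was at 45.0 and 41.0, and its other probe set above the floor at 21.6 and 29.8, with the opposite sign. The kinases of the same checkpoint were under the floor on both arrays: Bub1 at 3.94 and 11.3, its relative Bub1b at 2.83 and 1.98, and Ttk at 12.0 and 0.40. Ube2c, the ubiquitin-conjugating enzyme of the anaphase-promoting complex, was at 12.3 and 16.1, at the floor. Mad2l1, and Bub3 by an _s_at set, were thus measured well above the floor in both sorts without Bub1, Bub1b or Ttk. The next brightest Bub3 set was at 45.1 and 27.4, within the range of the other-tissue genes in marginal zone cells.

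Centromere and passenger genes had a median log2 ratio of -0.48 over the 4 above the floor, 3 of them with the higher signal in follicular cells and none past 2-fold. Of the 4, 2 (Birc5 and Cenpe) were above the floor on the follicular array only, which fixed their direction. Their follicular signals lay within the range of the other-tissue genes, so no direction is read from the median. Cenpa, the histone H3 variant that marks centromeres, was at 170.4 and 97.6, 1.75-fold in favour of follicular cells. Incenp, the scaffold of the passenger complex, was at 90.6 and 94.6 by its brightest probe set, while its other 2 probe sets did not exceed 5.74 on either array. Birc5, which encodes the passenger protein survivin, was at 16.1 and 2.87, at least 1.27-fold in favour of follicular cells. Cenpe, a kinetochore motor, was at 19.3 and 4.75, higher by at least 1.52-fold there. Cenpf, a kinetochore protein of late G2, was at 4.75 and 12.0, under the floor in both sorts.

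Chromosome structure genes were the one role with all 6 members above the floor on at least 1 array. Mki67, the gene of the Ki-67 antigen that coats mitotic chromosomes, was at 9.40 in follicular cells, under the floor, and 50.1 in marginal zone cells, at least 3.95-fold higher there on its single probe set. Top2a, the topoisomerase that untangles sister chromatids, was at 27.9 and 41.4, 1.48-fold in favour of marginal zone cells, and its other probe set at 0.91 and 1.68. Smc4, the ATPase core subunit of condensin, was at 295.8 and 219.4, and the log2 ratios of its 3 probe sets spanned -0.46 to 0.47. The partner subunit Smc2 was at 29.8 and 34.6. Of the other condensin subunits, Ncaph was at 24.5 and 27.1 and Ncapd2 at 15.9 and 11.8. The condensin genes had no common direction, and none passed 2-fold.

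Spindle genes were dim, and the brightest signal among them was 14.5, that of Hmmr in marginal zone cells. Kif11, the motor that pushes spindle poles apart, was at 12.7 and 8.51, and Kif2c, a microtubule depolymerase, at 13.9 and 11.5. Hmmr, a spindle assembly protein, was at 1.82 and 14.5, with its other 3 probe sets under the floor. Tpx2, which activates Aurka on the spindle, was at 1.11 and 4.06. None of the 4 was above the floor in both sorts.

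In the cytokinesis group, Racgap1 stood apart. Racgap1, the GTPase-activating subunit of the centralspindlin complex that sets the division plane, was at 5.76 in follicular and 51.4 in marginal zone cells, a difference of at least 4.05-fold. Its other probe set was at 2.12 and 48.8, higher by at least 3.85-fold, so 2 probe sets gave nearly the same bound. Kif23, the motor that is the partner of Racgap1 in that complex, was at 34.8 and 19.8, 1.76-fold in favour of follicular cells, with its other 2 probe sets under the floor. Prc1, which bundles microtubules of the central spindle, was at 10.9 and 14.9, near the floor. Kif20a, a central spindle motor, was at 1.31 and 9.20, and Anln, the anillin of the contractile ring, at 0.61 and 4.35, both under the floor on both arrays. By their brightest probe sets the subunits of centralspindlin thus differed in direction. For Kif23 this rested on 1 probe set, and its log2 ratio went from -0.81 to -0.27 with the mean over all its sets.

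Probe sets limit several of these values. Of the 37 genes, 18 had several probe sets, and of 67 member probe sets in all 34 were above the floor. In 7 genes at least 2 probe sets were above it, and their log2 ratios shared a sign in 3 of these (Ccna2, Bub3 and Racgap1) and differed in sign in 4 (Plk4, Cdc20, Smc4 and Kif2c). For 8 genes the brightest probe set carried the suffix _s_at or _x_at, by which Affymetrix marks sets that may match other transcripts. These were Plk4, Aurkb, Bub3, Cdc20, Incenp, Ncaph, Hmmr and Prc1. Among their other probe sets, Plk4 was at 18.9 and 27.7, Bub3 at 45.1 and 27.4, and Cdc20 at 21.6 and 29.8. By theirs, Incenp, Ncaph, Hmmr and Prc1 were under the floor on both arrays. Without such sets 20 members were above the floor, and 3 and 1 were still past 2-fold in marginal zone and follicular cells.

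**Figure D3:**
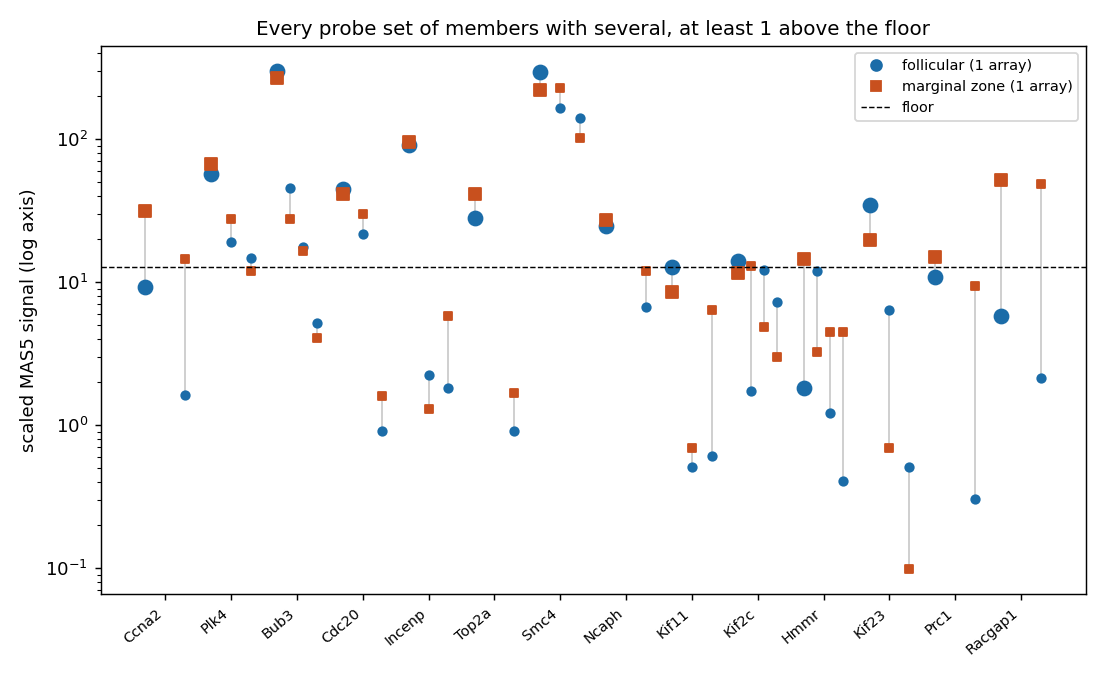
Scaled MAS5 signal (log axis) of every probe set of the 14 members with several probe sets and at least 1 above the floor of 12.7 (dashed line), on the follicular array (blue circles) and the marginal zone array (orange squares); large symbols are the brightest set of each gene and lines join the 2 arrays. Both sets of Racgap1 stand near 50 in marginal zone cells (51.4 and 48.8) and under the floor in follicular cells, while the sets of Smc4 differ in direction.

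Other genes of G2 and mitosis formed a list of 71, of which 49 were on the array. Of the 49, 34 (69.4%) were above the floor on at least 1 array, against 62.1% of all genes, and 15 were under it on both. Fewer were bright, as 9 (18.4%) passed the 75th percentile on either array, against 31.5% of all genes. Among the bright genes, named once values were known, were Pttg1 at 790.3 and 1033 by an _s_at set and Cks2 at 317.2 and 504.2. Smc1a was at 256.5 and 181.5 and Rad21 at 241.7 and 121.9. Of the 34, 17 were above the floor on both arrays with a ratio under 2-fold, and 12 had only a lower bound under 2-fold. Toward marginal zone cells 3 passed 2-fold and toward follicular cells 2, where 4.39% and 4.86% of all genes above the floor did. The median log2 ratio of the 34 was 0.15. Cdca5, which encodes sororin, a protector of sister chromatid cohesion, was at 17.0 and 46.5, 2.74-fold in favour of marginal zone cells; its other probe set was at least 1.34-fold higher. Nusap1, a spindle microtubule binder, was at 10.4 and 30.2, higher by at least 2.38-fold, with its other probe set under the floor. Cep55, a protein of the final cut between daughter cells, was at 30.3 and 12.6, at least 2.39-fold in favour of follicular cells. The kinesin Kif18a was at 15.5 and 31.8, 2.05-fold in favour of marginal zone cells, and the kinetochore gene Ndc80, picked once values were known, at 25.8 and 8.12, at least 2.03-fold in favour of follicular cells. Members of the list past 2-fold in either direction were all at signals under 50.

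Of the genes of the G1/S transition and DNA replication, 1 passed 2-fold toward follicular cells and 0 toward marginal zone cells. Of all genes above the floor, 4.86% and 4.39% did. Of 32 on the array, 26 (81.25%) were above the floor on at least 1 array, against 62.1% of all genes. On either array 13 (40.6%) passed the 75th percentile, against 31.5%. Bright genes, named once values were known, included Cdt1 at 2002 and 1510, Pcna at 381.8 and 363.7 and Mcm7 at 328.4 and 354.3. Under the floor on both arrays were 6, while 20 were above it on both with a ratio under 2-fold, and 5 had only a lower bound under 2-fold. The median log2 ratio was -0.10 over the 26 above the floor. Fen1, the flap endonuclease of lagging strand synthesis, was at 1084 in follicular and 291.7 in marginal zone cells, 3.72-fold higher in follicular cells by a set with the suffix _x_at, and its other set was at 36.4 and 4.85, higher by at least 2.87-fold. Mcm6, a subunit of the replicative helicase, was at 84.1 and 154.0, 1.83-fold in favour of marginal zone cells. Lig1, the replicative DNA ligase, was at 22.4 and 40.6, and Gmnn, which encodes the replication inhibitor geminin, at 58.6 and 33.7. Without sets of the suffixes _s_at and _x_at, 3 genes passed 2-fold toward follicular cells: Fen1, and, named once values were known, Mcm2 at 82.0 and 36.6 and Pold1 at 100.8 and 45.3. With the floor at the 25th percentile, 2 genes of the list passed 2-fold toward marginal zone cells.

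Of 18 Cdk inhibitors, pocket proteins and other quiescence factors, 4 passed 2-fold toward follicular cells and 0 toward marginal zone cells, where 4.86% and 4.39% of all genes above the floor did. All 18 were above the floor on at least 1 array, and 16 had the higher signal in follicular cells, as did 52.2% of all genes above the floor. Their median log2 ratio was -0.55. With the floor at the 75th percentile, 1 passed 2-fold. Slfn2, a factor of lymphocyte quiescence, was at 84.7 and 20.5, 4.13-fold in favour of follicular cells. Klf2, a quiescence factor of lymphocytes, was at 1112 and 451.9, higher by 2.46-fold there. Foxo3, a forkhead factor of resting cells, was at 52.9 and 20.1, higher by 2.64-fold in follicular cells, and its second probe set was 1.78-fold higher there. Cdkn2d, which encodes the Cdk4 and Cdk6 inhibitor p19, was at 29.5 and 11.2, higher by at least 2.33-fold.

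**Figure D4:**
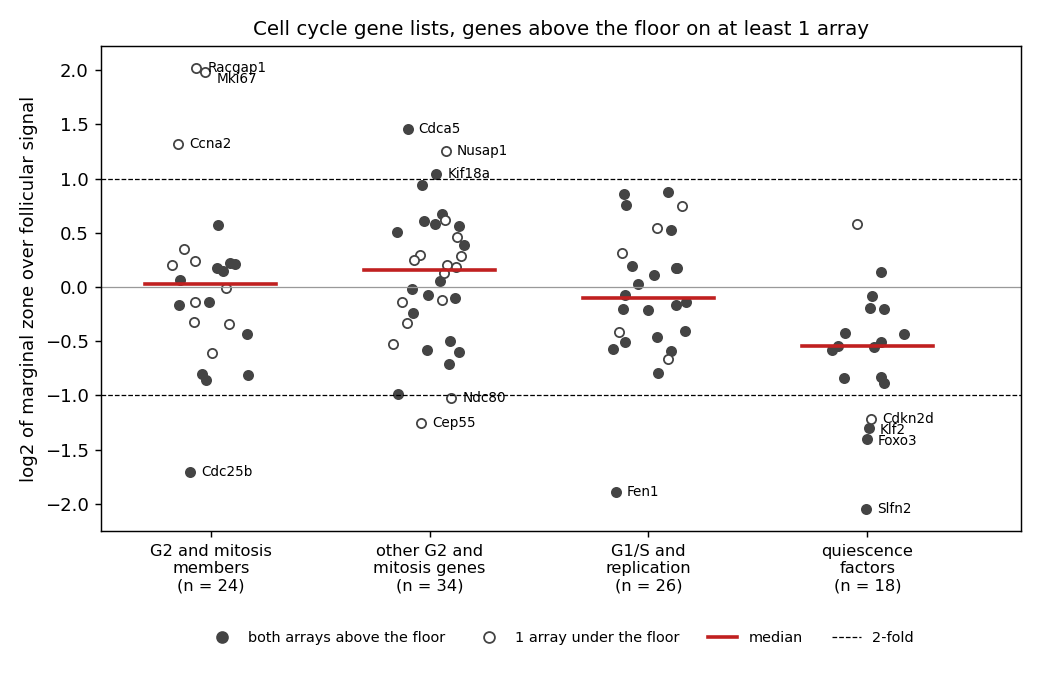
Difference in log2 signal, marginal zone minus follicular (the log2 ratio), for genes above the floor on at least 1 array: 24 G2 and mitosis members, 34 other genes of G2 and mitosis, 26 genes of G1/S and replication and 18 quiescence factors. Open circles have 1 array under the floor, red bars are medians (0.03, 0.15, -0.10 and -0.55), dashed lines mark 2-fold, and genes past 2-fold are named.

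Marker genes of other spleen cells were mostly dim. Of 11 macrophage genes on the array, 8 were above the floor. All 8 were brighter in marginal zone cells, as were 47.8% of all genes above the floor. On the marginal zone array only, 5 of the 8 were above the floor, which fixed their direction. Adgre1 was level at 23.7 and 24.9. Under the floor on both, C1qc was at 5.66 and 0.59 and Marco at 1.62 and 0.89. The 11 signals summed to 84.1 on the follicular and 204.9 on the marginal zone array. Csf1r was at 17.3 and 42.5, Lyz2 at 12.9 and 25.2, and Cd5l at 11.1 and 26.7. On the marginal zone array Csf1r alone of the macrophage genes passed the brightest other-tissue gene, Mbp at 36.3. Lyz2 and Cd5l lay within the range of the other-tissue genes, so their signals do not show expression. Csf1r, Lyz2 and Cd5l moved the same way as Mki67, Racgap1 and Ccna2, and their part in those differences was not tested. Plasma cell genes summed to 1032 and 1250, with Prdm1 at 12.7 and 30.9, Jchain at 20.2 and 28.0 and Sdc1 at 68.3 and 4.35. Most of both sums came from Xbp1 at 396.6 and 659.0 and Irf4 at 532.4 and 527.1, which other B cells also express. Their part was not tested either. Germinal centre genes, which mark B cells that divide fast, were under the floor on both arrays in 3 of 3 cases, with Mybl1 at 5.76 and 2.47, Gcsam at 5.25 and 0.59 and Fas at 6.97 and 0.99.

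Of 8 erythroid precursor genes, 5 were above the floor, all in follicular cells only, with sums of 100.7 and 44.7. All 5 had only a lower bound under 2-fold. The highest, Ermap at 22.9 and 5.74, was within the range of the other-tissue genes, so these signals do not show expression. Klf1 was at 16.5 and 6.04. Gata1 at 3.74 and 8.91 and Alas2 at 2.43 and 4.45 were under the floor on both arrays. B cell precursor genes had 2 of 6 above the floor and sums of 99.3 and 69.8, with Rag1 at 0.81 and 11.1, Rag2 at 1.92 and 8.41 and Dntt at 8.18 and 6.43. Cd93 of the same list, which marks transitional B cells, was named once values were known. It was at 52.4 and 5.54, at least 4.14-fold in favour of follicular cells, with its other probe set under the floor on both arrays. Igll1, the other gene of the list above the floor, was level at 29.9 and 31.7 by a set with the suffix _x_at. T and NK cell genes summed to 42.0 and 17.9 over 7 genes, of which 2 were above the floor on the follicular and 0 on the marginal zone array. Cd3e was at 17.2 and 1.29, Cd3d at 0.61 and 1.68 and Cd3g at 4.14 and 5.54. Neutrophil and myeloid precursor genes summed to 61.1 and 80.5 over 8 genes, of which 1 and 2 were above the floor. Elane was at 8.89 and 14.4, Mpo at 1.21 and 10.6 and Prtn3 at 3.74 and 4.95. No gene of these lists was at exactly 0. The sums include signals under the floor, which have no reliable order, so no direction is read from them. The sort itself was visible in Fcer2a, which encodes CD23, at 726.8 and 89.6, and in Cr2, which encodes CD21, at 277.9 and 889.9.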

How the data were processed

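The authors deposited intensities on a linear scale for 22626 probe sets on 2 arrays, which are MAS5 signals per the submitters' processing notes. Version, scaling target and detection calls are not stated there. Per the labels' protocols, about 100 ng of total RNA per sort was amplified in 2 cycles and biotin-labelled. Deposited medians were 12.8 (follicular) and 12.6 (marginal zone).

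Arrays were scaled to a common 2% trimmed mean (factors 1.01 and 0.990), values under the median were raised to it, and each gene took its brightest probe set by mean log2 signal over both arrays (Python 3.11.15, pandas 2.3.3). The platform annotation gave 20380 probe sets 1 gene, 691 several and 1555 none. With 1 array per group no test was made and 2-fold served as threshold. The per-gene step was tested on simulated data. All 38 members are named. Of 3 other cell cycle lists the 4 largest log2 ratios are named, and of 9 marker lists the first 3 genes on the array. For B cell identity these 3 are Ms4a1, Cd79a and Cd79b. Of the other-tissue list the brightest gene and the next on each array are named. Further genes of the lists were named once values were known. Members and lists were chosen with earlier results of these data known. Alternatives were 3 scalings, 2 floors, a pseudocount, 3 probe set rules, thresholds of 1.5-fold and 3-fold and, chosen after seeing the data, no _s_at or _x_at sets.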

Additional observations from a re-analysis of the deposited data

How the results depend on the processing

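The counts of members past 2-fold depend on the floor, because 3 of the 4 had 1 array under it. With the floor at the 25th percentile 7 members were past 2-fold in marginal zone and 4 in follicular cells; with the floor at the 75th percentile both counts were 0 and 9 members were above the floor. At that higher floor the log2 ratios of Mki67, Racgap1 and Cdc25b were 0.13, 0.17 and -0.39, and Ccna2 had no value. The mean over all probe sets put Ccna2 at 0.76, leaving 2 members past 2-fold in marginal zone cells. At a threshold of 1.5-fold 5 members were higher in follicular cells. The member median turned to -0.17 with the floor at the 75th percentile, -0.025 with a pseudocount and -0.073 without _s_at and _x_at sets. Smc4 was at 0.47 when the brightest set was taken from the marginal zone array and Cdc20 at 0.46 without such sets, both against a main value below 0. Of 44 comparisons of the member counts and median with an alternative, 38 stayed within 1.5 times or within the SD between probe sets, among them the 3 medians that changed sign. That SD of 0.44 is one of single genes, and the medians ran only from -0.17 to 0.11. The count thus says little about the median. Under the 4 scalings the median log2 ratio of all genes above the floor lay between -0.030 and 0.023. Of the other lists, quiescence factors past 2-fold in follicular cells went from 4 to 1 with the floor at the 75th percentile. The other G2 and mitosis genes past 2-fold went from 3 in marginal zone and 2 in follicular cells to 0 and 0 there, to 7 and 5 at the 25th percentile, to 1 and 0 with a pseudocount and to 1 and 1 with the mean over all probe sets. Genes of G1/S and replication past 2-fold in follicular cells went from 1 to 3 without _s_at and _x_at sets. No paired analysis was possible because each sort has 1 array, and no array could be left out for the same reason. Signals near the floor limit what can be read from the dim members.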
